A study of Mus musculus with 64 samples.

Results

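The genes described here are Arpp21, Rsph9, Ddc, Myo18b, Nrn1, Dapl1, Nipal1 and Igf2, 8 of the 26286 genes in the deposited table of RNA-seq counts from scat mice. They were picked from the measured values, because their difference between mice in crisis and young wild-type mice in whole spleen was unlike that in whole bone marrow. The whole-tissue crisis differences of these genes are therefore given as a description, with no test. Tests are given for libraries that the choice did not use: sorted progenitors, mice in remission, and spleen set beside marrow within remission.

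The scat mouse carries an inherited missense allele of Rasa3, a GTPase-activating protein that turns off Ras and Rap1. On the BALB/cBy background (CbyJ.Cby-Rasa3(scat)/Llp), scat/scat mice pass through episodes of severe anemia and low platelets, called crisis (disease state critical, Stage I), and a partial remission (Stage II). The 64 libraries came from 18 mice and 6 populations: whole bone marrow, whole spleen, and megakaryocyte-erythroid progenitors (MEP) and stem and myeloid progenitors (SMP) sorted from each. The crisis group held 18 libraries of 3 scat/scat mice aged 23 to 28 days. The young wild-type (+/+) group held 18 libraries of 7 mice of the same age range. The remission group held 17 libraries of 5 scat/scat mice aged 32 to 58 days, and the older wild-type group 10 libraries of 3 mice of those ages, with 1 library each for whole spleen and spleen SMP. All mice shared the same strain background, scat/scat mice carry the mutation in every cell, and the labels name no transgene or drug. SMP were gated on Kit and CD34 with low CD16/32 and no lineage markers or Sca-1, and since BALB mice stain weakly for Sca-1 this gate does not part stem cells from common myeloid progenitors.

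Levels are the authors' normalised counts, rescaled within each population so that the typical gene sits at the same level in every library, and log2 differences were taken after adding 1. The deposited totals ran from 33.6 to 107.6 M counts per library, with a median of 50.6 M, and 16413 to 19940 genes lay above 0. The marker genes separated the sorts: summed stem and early progenitor markers stood at 3163 to 3585 CPM (deposited normalised counts scaled to one common total per library) in young wild-type marrow SMP against 447 to 655 CPM in marrow MEP. A whole-spleen library of remission, that of mouse 1 (58 days), stood apart from the other two, with T cell markers at 2048 CPM against 188 and 222. Another whole-spleen library, of older wild-type mouse 1 (also 58 days), was labelled scat/scat in remission while that mouse's other libraries were labelled wild type, so it entered no group. Whether the spleen labels of these 2 mice were exchanged was not tested. The library of remission mouse 1 is used under its label, and calls that rest on it are also given without both mice. In these bulk samples, fewer cells of a type and less RNA per cell cannot be told apart.

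The mouse spleen is both a lymphoid and a blood-forming organ and holds mature B and T cells together with erythroid and myeloid precursors, whereas the marrow is where B cells are first made. Arpp21, a cyclic AMP-regulated RNA-binding phosphoprotein best known in neurons, is also a gene of early lymphocytes. Rsph9 encodes a head protein of the radial spokes of motile cilia, and Ddc the aromatic amino acid decarboxylase that makes dopamine and serotonin. Myo18b is an unconventional myosin of striated muscle. Nrn1 (neuritin) is a GPI-anchored protein of neurites that is also made by some T cells, Dapl1 a small protein related to death-associated protein, and Nipal1 a membrane protein of the NIPA family of magnesium transporters. Igf2, insulin-like growth factor 2, is a fetal growth factor that is expressed from the paternal allele and lies beside the maternally expressed RNA H19.

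In GRCm38 with the GENCODE M21 models, 5 members lie on the minus strand of a different chromosome each: Arpp21 at chr9:112065091-112235938, Rsph9 at chr17:46122035-46144216, Ddc at chr11:11814101-11898144, Nrn1 at chr13:36725361-36735131 and Igf2 at chr7:142650766-142666816. Myo18b (chr5:112688876-112896362, minus strand) and Nipal1 (chr5:72647795-72671078, plus strand) share chromosome 5. Dapl1 is at chr2:59484653-59505020 on the plus strand. All 8 are protein-coding. Rsph9 overlaps Mrps18a and Nrn1 overlaps Fars2 on the opposite strand, and whether the counting used strand is not given in the sources used here. In crisis Mrps18a differed from young wild type by −0.11 (log2) in marrow and 0.46 in spleen, and Fars2 by 0.03 and 0.45, with no adjusted p from limma past 0.05. Arpp21 also hosts the microRNA gene Mir128-2.

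The promoters of 5 members are shown because 3 of them (Arpp21, Rsph9 and Ddc) stood low together in crisis marrow and the other 2 (Dapl1 and Nipal1) stood low together in crisis spleen. Each sequence is the 250 bases before a transcription start in RefSeq's table (GRCm38.p6), 5′ to 3′ on the gene's own strand, with motif matches in capitals. The short motifs searched on both strands were AGATAA, bound by GATA factors, TTCNNNGAA, bound by STAT factors, and CCCNNGGG, bound by EBF1. They occur in 9.988%, 7.02% and 11.82% of all 32851 promoter windows of that length.
Arpp21 (1 of 9 starts in the table, chr9:112233723-112233972): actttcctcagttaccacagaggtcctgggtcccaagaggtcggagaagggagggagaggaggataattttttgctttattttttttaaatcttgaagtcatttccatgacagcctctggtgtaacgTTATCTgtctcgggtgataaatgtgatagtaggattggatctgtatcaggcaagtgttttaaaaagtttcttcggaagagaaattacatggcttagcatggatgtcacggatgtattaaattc
Rsph9 (chr17:46144201-46144450): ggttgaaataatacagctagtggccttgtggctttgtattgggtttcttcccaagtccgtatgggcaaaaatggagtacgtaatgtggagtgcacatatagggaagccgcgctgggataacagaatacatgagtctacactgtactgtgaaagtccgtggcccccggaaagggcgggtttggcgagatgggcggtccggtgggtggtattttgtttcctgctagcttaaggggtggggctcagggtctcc
Ddc (1 of 2 starts, chr11:11898145-11898394): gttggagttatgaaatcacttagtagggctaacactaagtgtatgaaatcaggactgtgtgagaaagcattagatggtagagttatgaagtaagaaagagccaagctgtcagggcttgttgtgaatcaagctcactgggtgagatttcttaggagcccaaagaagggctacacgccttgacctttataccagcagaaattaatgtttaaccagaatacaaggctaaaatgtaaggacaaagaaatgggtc
Dapl1 (chr2:59484403-59484652): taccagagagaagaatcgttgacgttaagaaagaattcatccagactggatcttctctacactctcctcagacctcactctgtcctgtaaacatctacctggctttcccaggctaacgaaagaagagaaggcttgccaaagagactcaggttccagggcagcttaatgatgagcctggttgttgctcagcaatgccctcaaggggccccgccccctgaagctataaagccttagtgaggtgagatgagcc
Nipal1 (chr5:72647546-72647795): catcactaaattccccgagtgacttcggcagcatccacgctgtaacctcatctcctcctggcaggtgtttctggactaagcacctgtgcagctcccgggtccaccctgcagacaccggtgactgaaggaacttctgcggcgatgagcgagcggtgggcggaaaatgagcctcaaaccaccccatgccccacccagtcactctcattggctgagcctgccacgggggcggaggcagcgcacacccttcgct
The Arpp21 window held 1 match, to AGATAA on the reverse strand, printed as TTATCT, and these 3 sets of letters were not found in the other 4 windows. Igf2 has 4 starts in that table and is not shown, and Myo18b and Nrn1 are named without a promoter.

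Arpp21, Rsph9 and Ddc were marrow genes in young wild-type mice. Each stood higher in all 3 whole-marrow libraries than in all 3 whole-spleen libraries, and each stood lower in all 3 crisis marrows than in all 3 young wild-type marrows. The fitted crisis differences in marrow were 3.69-fold lower for Arpp21, 6.82-fold for Rsph9 and 7.41-fold for Ddc. In spleen the 3 genes parted: Arpp21 stood 3.52-fold higher in crisis, while Rsph9 and Ddc differed by less than their standard errors.

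Arpp21 in whole marrow measured 235, 304 and 302 in young wild type, and 166, 68.0 and 36.6 in crisis. In whole spleen it measured 45.5, 56.4 and 32.1 in young wild type, and 156, 204 and 119 in crisis. Crisis libraries thus lay below every young wild-type library in marrow and above every one in spleen, and the gene's order between tissues, marrow above spleen in health, was lost in crisis, where the ranges overlap. The log2 difference was −1.88 (SE 0.499) in marrow and 1.82 (SE 0.627) in spleen, and 3.64 (SE 0.705) between the tissues. Neither direction changed in any of 15 processing settings, with ranges of −2.46 to −1.38 in marrow and 1.56 to 2.04 in spleen.

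Rsph9 in whole marrow measured 689, 712 and 579 in young wild type, against 310.2, 48.9 and 56.9 in crisis. Crisis mouse 1 (23 days old) stood well above the other two, yet below every young wild-type library. In whole spleen the gene measured 88.1, 131 and 72.3 in young wild type and 133, 95.8 and 94.0 in crisis, so the groups overlapped. The log2 differences were −2.77 (SE 0.627) in marrow and 0.17 (SE 0.735) in spleen, the latter turning sign in 1 of 15 settings.

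Ddc followed Rsph9 closely. Whole marrow measured 473, 348 and 359 in young wild type and 222, 19.8 and 30.6 in crisis, with mouse 1 again the highest of the crisis libraries. Whole spleen measured 38.2, 68.0 and 49.8 against 42.7, 45.8 and 58.9, which overlap fully. The log2 differences were −2.89 (SE 0.706) in marrow and −0.06 (SE 0.418) in spleen, the latter turning sign in 3 of 15 settings. Across the 21 assigned whole-tissue libraries, log2 levels of Rsph9 correlated with those of Ddc at r = 0.90 and with those of Arpp21 at r = 0.88, values that also carry the shared contrast between tissues.

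**Figure D1:**
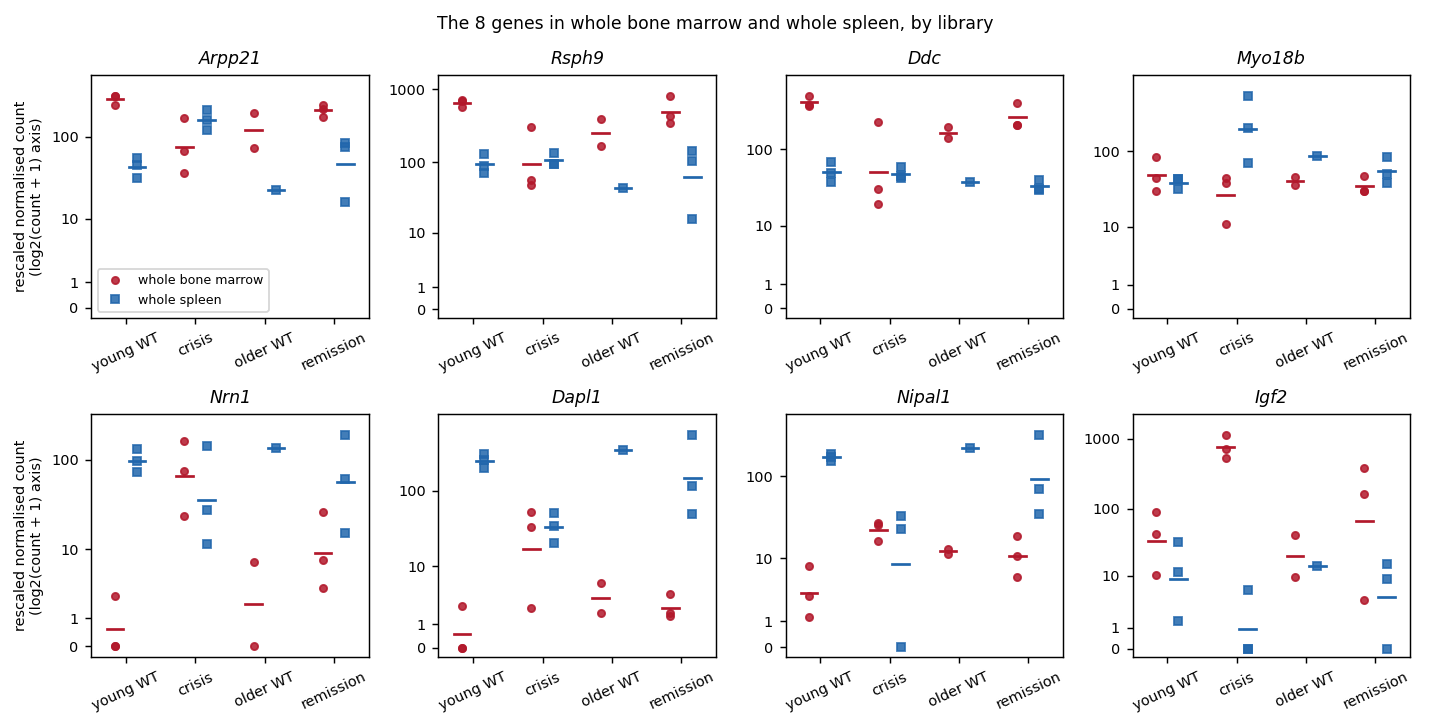
Level of each of the 8 genes (normalised counts after rescaling, logarithmic axis) in each whole-tissue library, by tissue and group, with points for libraries and short lines for group means. Arpp21 in crisis lies at 36.6 to 166 in marrow, below young wild type, and at 119 to 204 in spleen, above young wild type.

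Genes of the early B lineage moved with this set in the marrow. Their summed level over 18 markers was 3303 to 3914 CPM in young wild-type marrow and 209 to 1493 CPM in crisis marrow, with mouse 1 highest, and at most 1 of the 18 was listed at 0 in any of these libraries. In the limma fit 11 of the 18 were lower in crisis marrow and none higher, with a median log2 difference of −3.33, where 8.59% of all genes tested were called and 5.08% of all genes tested were called lower, and the median of all genes was 0.01. The surrogate light chain genes Igll1 (−5.59, SE 1.41, adjusted p = 0.0451), Vpreb1 (−4.95) and Vpreb2 (−4.59) fell the most, followed by the scaffold gene Akap12 (−4.14). That count was 18 without crisis mouse 1, 0 without crisis mouse 2, 0 without crisis mouse 3, and 5 without remission mouse 1 and older wild-type mouse 1. The part of these cells in the marrow values of Arpp21, Rsph9 and Ddc was not tested.

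In the spleen the early B markers went the other way from Arpp21. They summed to 1677 to 1924 CPM in young wild-type spleen and to 145 to 250.1 CPM in crisis spleen, the libraries where Arpp21 was highest. Of 17 early B genes tested there, 10 fell and none rose, where 15.2% of all genes were called, and the genes that fell included Vpreb3 (−4.06), Cd79a (−3.64) and Cd79b (−3.53). Without crisis mouse 2 or crisis mouse 3 that count was 0, without crisis mouse 1 it was 8, and without remission mouse 1 and older wild-type mouse 1 it was 15. Rsph9 and Ddc overlapped young wild type in the same spleens.

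Pathway neighbours of Rsph9 and Ddc were read against the shares of all genes called, 8.59% in marrow and 15.2% in spleen, and with lists this small nothing particular to them is read from the counts. Of the 20 radial spoke and motile cilium genes listed, 9 could be tested in marrow, and Rsph1, another radial spoke head gene, was lower in crisis (−2.83, SE 0.662, limma adjusted p = 0.0348) while the other 8 were not called. Rsph1 also fell in whole spleen (−2.71, adjusted p = 0.0464), the sole one of 8 tested there, whereas Rsph9 did not. Of 13 monoamine genes tested in marrow, none was called by limma (3 at an unadjusted p under 0.05), and the well-expressed aldehyde dehydrogenase gene Aldh1a1 differed by 0.09 (log2, limma adjusted p = 0.804). In spleen 1 of 13 was called, the monoamine oxidase gene Maob (−4.08, SE 1.17, adjusted p = 0.0472).

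Nrn1, Dapl1 and Nipal1 were spleen genes in young wild-type mice and stood near 0 in the marrow of the same age. All 3 had lower mean levels in crisis spleen and higher mean levels in crisis marrow, so that the order of the tissues was no longer seen: in crisis, spleen and marrow overlapped for each.

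Nipal1 in whole spleen measured 185, 171 and 152 in young wild type and 0, 23.1 and 34.0 in crisis. In whole marrow it measured 2.93, 1.23 and 7.88 against 28.0, 25.9 and 16.7. Both tissues separated fully, in opposite directions. The log2 differences were −4.17 (SE 1.28) in spleen and 2.49 (SE 0.692) in marrow, and the difference between tissues of −6.80 (SE 1.37) ranged from −7.81 to −4.93 over 20 settings.

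Dapl1 in whole spleen measured 248, 194 and 298 in young wild type and 20.4, 34.4 and 52.1 in crisis, a log2 difference of −2.83 (SE 0.756). In whole marrow it measured 0, 2.44 and 0 in young wild type and 2.21, 33.3 and 52.9 in crisis, with mouse 1 inside the young wild-type range. The marrow mean fell under the minimum of 10 that a gene needed to be fitted, so no marrow difference was estimated alone. In the joint fit of both tissues the difference was −6.31 (SE 1.13).

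Nrn1 varied most among the crisis mice. Whole spleen measured 95.5, 74.2 and 131 in young wild type and 11.5, 139 and 27.9 in crisis, so mouse 2 exceeded every young wild-type library while the other two lay below all of them. Whole marrow measured 0, 2.44 and 0 in young wild type and 24.0, 159.7 and 76.0 in crisis, with mouse 2 again the highest. The fitted differences were −1.41 (SE 1.02) in spleen and 5.49 (SE 1.09) in marrow, and since the young wild-type marrow lies at or near 0, the second depends on the value added before the logarithm and ranged from 3.67 to 6.21.

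T cell markers were low in all 3 crisis spleens, as Dapl1 and Nipal1 were, whereas Nrn1 in crisis mouse 2 exceeded every young wild-type spleen. The 16 markers summed to 811 to 1174 CPM in young wild-type spleen and 49.1 to 134 CPM in crisis spleen, with none at 0. All 16 fell in limma, where 15.2% of all genes were called, with a median of −3.31 against −0.05 for all genes. They were led by Cd5 (−4.00, SE 0.779, adjusted p = 0.0228), Cd8b1 (−3.75), Trbc2 (−3.62) and Cd3e (−3.50). Leaving out any 1 of the 3 crisis libraries took that count to 0, with medians of −2.82 to −3.55, and leaving out remission mouse 1 left it at 16. All 12 mature B cell genes fell as well, from 3745 to 4694 CPM down to 367 to 460.5 CPM, a count of 2 without crisis mouse 1 and 0 without either other crisis mouse. The part of T and B cells in the spleen values of Nrn1, Dapl1 and Nipal1 was not tested.

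In marrow, T cell markers summed to 82.1 to 91.9 CPM in young wild type and to 61.8, 129 and 150.2 CPM in crisis mice 1, 2 and 3. Nrn1 and Dapl1 had the same lowest mouse, while Nipal1 was highest in it. Of the 16 markers none was called by limma and 6 had an unadjusted p under 0.05 (the best expressed, Lck and Tcf7, differed by −0.17 and 1.39, adjusted p = 0.518 and 0.0503), with a median of 1.02, and 10 were called higher without crisis mouse 1. Of 14 naive and regulatory T cell genes, Foxp3, the master gene of regulatory T cells, rose (2.48, SE 0.541, limma adjusted p = 0.0296). Il2ra (−2.70), Lef1 (−1.84) and Dusp10 (−1.68) fell, beside 8.59% of all genes called. Lef1 is also on the early B list, so this list is not particular to T cells, and the cells behind its values were not tested. In spleen 13 of these 14 fell, beside 15.2% of all genes called, among them Lef1 (−3.30), S1pr1 (−3.26), Klf2 (−3.10) and Ccr7 (−3.02). Leaving out crisis mouse 2 or 3 took the naive and regulatory counts to 0 in both tissues, and without crisis mouse 1 the spleen count was 1.

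**Figure D2:**
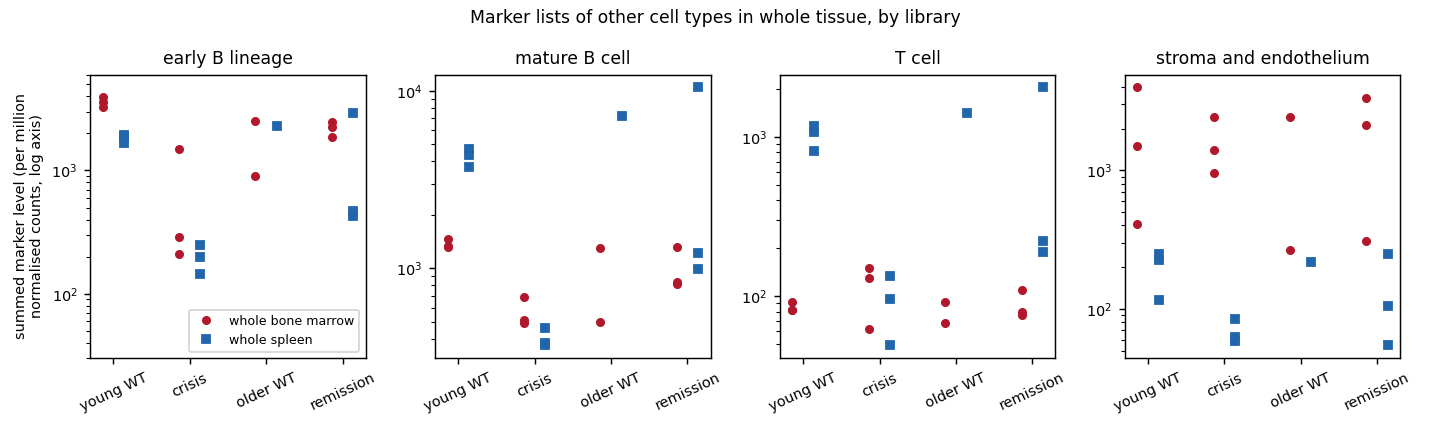
Summed level (CPM, logarithmic axis) of early B, mature B, T cell and stroma marker lists in each whole-tissue library, by tissue and group, with 1 point per library. T cell markers in crisis spleen lie at 49.1 to 134, below the 811 to 1174 of young wild type, while in marrow the crisis range of 61.8 to 150.2 spans that of young wild type.

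Family neighbours of Nipal1 and Nrn1 are set beside the same shares, 8.59% of all genes in marrow and 15.2% in spleen. None of 13 NIPA and magnesium transport genes was called in marrow by limma (5 at an unadjusted p under 0.05), where the best expressed, the channel kinase Trpm7 and the transporter Magt1, differed by 0.09 (adjusted p = 0.838) and −0.12 (adjusted p = 0.734). In spleen 2 of 13 rose, Slc41a3 (1.23) and Nipa2 (0.78), and 2 fell, Slc41a2 (−2.73) and Slc41a1 (−1.76), all magnesium transporters. Of the GPI-anchored neuronal genes, the neurotrophic factor receptors Gfra1 (−4.15, SE 1.08, adjusted p = 0.0483) and Gfra2 (−1.60) fell in marrow, 2 of 8 tested. The T cell surface gene Thy1 fell in spleen (−3.44), 1 of 6.

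Igf2 had little spleen signal and overlapped between the tissues in young wild type, while in crisis marrow it stood above every other library. Whole marrow measured 10.2, 88.1 and 42.7 in young wild type and 541, 1130.0 and 727 in crisis, with no overlap. The log2 difference was 4.44 (SE 1.42), or 21.7-fold, and ranged from 3.62 to 5.11 over 15 settings. Whole spleen measured 1.48, 32.5 and 11.4 in young wild type and 5.83, 0 and 0 in crisis, and its mean was too low to be fitted alone. Between the tissues the crisis difference was −6.86 (SE 1.84).

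H19, the imprinted neighbour, had the highest Pearson correlation with Igf2 over the 63 assigned libraries (r = 0.79). It was the third by Spearman correlation (0.66) and the third over the 21 whole-tissue libraries (r = 0.90), after Sh3pxd2b (0.90) and Lamb1 (0.90). It measured 23.0, 185 and 98.4 in young wild-type marrow and 1536, 1795 and 599 in crisis marrow, again without overlap, and at most 7.24 in any whole spleen. Its crisis difference in marrow, 3.96 (SE 2.19), did not pass limma's threshold (adjusted p = 0.302). In young wild-type marrow the library with the least Igf2 also had the least H19, and that with the most Igf2 the most H19, while in crisis mouse 2 had the most of both, mouse 1 the least Igf2 and mouse 3 the least H19.

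**Figure D3:**
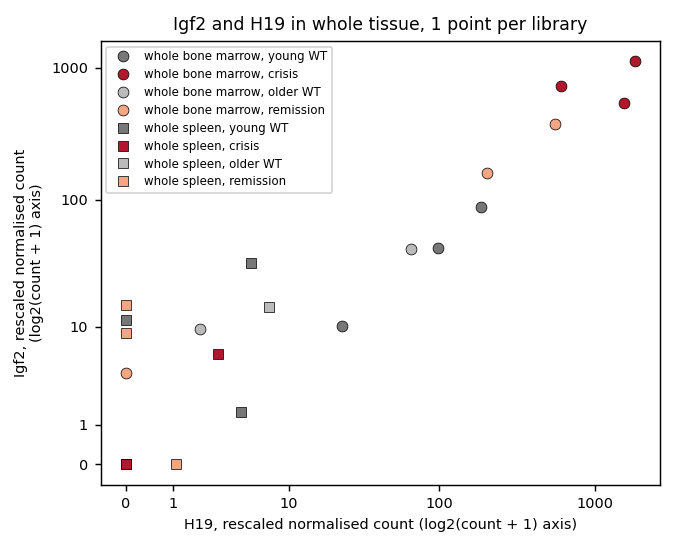
Level of Igf2 against that of H19 (normalised counts after rescaling with 1 added, both axes logarithmic) in each whole-tissue library, coloured by group and marked by tissue. The 3 crisis marrows lie together at the upper right, with Igf2 at 541 to 1130.0 and H19 at 599 to 1795, and the spleens lie at the lower left.

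Of 22 listed genes of the insulin-like growth factor system, a list that does not hold Igf2 itself, 19 are in the table and 16 were tested. None was called by limma in crisis marrow, beside 8.59% of all genes, and 2 had an unadjusted p under 0.05. The best expressed, Igfbp4 and Insr, differed by −0.03 (adjusted p = 0.944) and −0.01 (adjusted p = 0.981). In spleen the adaptor gene Irs2 rose (1.48, adjusted p = 0.028), and the binding protein genes Igfbp4 (−1.81) and Igf2bp3 (−1.99) fell, of 13 tested, beside 15.2% of all genes called. Stroma and endothelium markers ran from 412 to 3959.7 CPM over the young wild-type marrows and from 961 to 2443 CPM in crisis, inside that wide range. Within young wild type the marrow with the lowest Igf2 also had the lowest stroma sum and the one with the highest Igf2 the highest. So it was in remission, whose stroma sums were 308, 2119 and 3318 CPM. The part of stroma in the Igf2 values was not tested.

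Myo18b differed in the spleen. Whole spleen measured 32.3, 43.2 and 43.2 in young wild type and 70.3, 197 and 513 in crisis, spread widely within crisis yet above every young wild-type library. Whole marrow measured 85.3, 30.6 and 44.9 against 10.8, 45.5 and 38.6, which overlap. The log2 differences were 2.27 (SE 0.669), or 4.81-fold, in spleen and −0.84 (SE 0.572) in marrow. The library of the older wild-type spleen, at 85.8, lay above the lowest crisis value.

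No muscle gene or other myosin was called higher in crisis spleen, where 15.2% of all genes were called in either direction. Of 9 striated muscle genes tested there, Actn2 (−4.27) and Tnni2 (−3.53) fell and none rose. Of 19 unconventional myosins, 4 fell and none rose, Myo1e (−2.85), Myo1g (−2.56), Myo1f (−1.36) and Myo1c (−1.12), myosins that link membranes to actin. In marrow the troponin gene Tnni1 (−3.98) and Myo1c (−1.38) fell, and Myo1d (0.81) and Myo9a (0.68) rose, beside 8.59% of all genes called. Monocyte and macrophage markers summed to 1331 to 2524 CPM in young wild-type spleen and 527 to 1672 CPM in crisis spleen, ranges that overlap. Of 16 such genes 4 fell, Siglec1, Ccr2, Ly6c2 and Lyz2, beside 15.2% of all genes called. The part of these cells in the Myo18b values was not tested.

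Set in order over the 8 combinations of tissue and group, mean Arpp21 ran from 280.3 in young wild-type marrow, which no other whole-tissue group overlapped, to 23.1 in the older wild-type spleen, with overlap between all neighbours from remission marrow (206) down to young wild-type spleen (44.7). Rsph9 ran from young wild-type marrow to older wild-type spleen with overlap at every step, or a single library inside the range above it. Ddc had all 4 marrow groups above all 4 spleen groups by their means, with separation between remission marrow (264) and older wild-type marrow (163.6). Nipal1 separated into 3 spleen groups at 138 and above and 5 groups at 23.5 and below, among them crisis spleen. Each of these 5 overlapped the next in order, while crisis marrow lay above young and older wild-type marrow. Dapl1 and Nrn1 had both wild-type spleen groups at the top and young wild-type marrow at the bottom (0.814 each), and Igf2 had crisis marrow (799) apart from remission marrow (181) and all others.

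**Figure D4:**
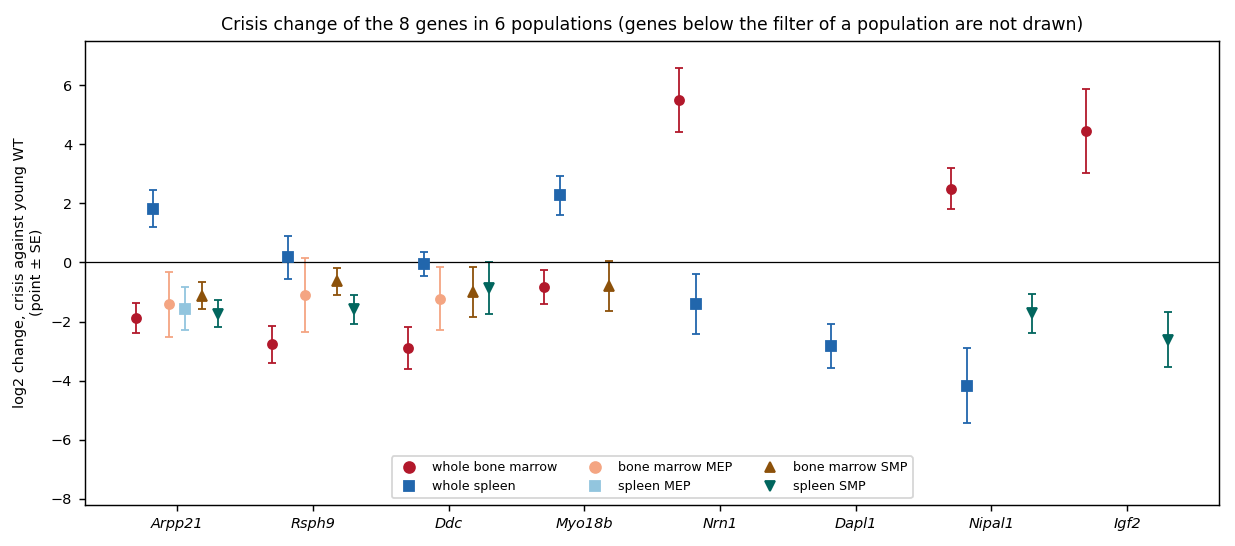
Difference between crisis and young wild type (log2, point, with its standard error as a bar) for each gene that could be fitted in each of the 6 populations. Arpp21 lies below 0 in marrow, in both MEP and in both SMP populations, and above 0 in whole spleen.

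Counted over the set, 6 of 8 genes did not overlap between crisis and young wild type in marrow: Nrn1, Nipal1 and Igf2 above, and Arpp21, Rsph9 and Ddc below. Of all genes tested in marrow, 32.9% did not overlap. In spleen 4 of 8 did not overlap, Arpp21 and Myo18b above and Dapl1 and Nipal1 below, beside 58.2% of all genes. Between the tissues, 6 of 8 separated in young wild type (44.8% of all genes), the exceptions being Myo18b and Igf2, and 2 of 8 in crisis (52.3%), which were those same 2: Myo18b higher in spleen and Igf2 higher in marrow. The set was chosen from these values, so the counts describe it and nothing is read from them.

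The genes whose levels most resembled each member over the 63 assigned libraries were found by Pearson correlation of log2 levels. Such r over pooled populations mainly carries differences between populations, and several of these genes differed from their member in crisis spleen. For Arpp21 they were Drc7 (0.88), the lymphoid polymerase gene Dntt (0.86) and Gm16252 (0.86). For Rsph9 they were Camk2d (0.91), Atp1b1 (0.88) and Trp53inp1 (0.88), and for Ddc they were Fndc9 (0.88), Cpm (0.88) and Rsph9 itself (0.87). Dntt measured 4049 to 6314 in young wild-type marrow and 183 to 1894 in crisis marrow (−3.21, SE 0.707), and in spleen it differed by −2.21, where Arpp21 stood higher. In whole spleen the mean of Camk2d was 3477 in young wild type and 1127 in crisis. That of Atp1b1 was 2603 and 501, and that of Cpm 2402 and 270, where Rsph9 and Ddc overlapped. Such neighbours were picked for their likeness over these same libraries, so their crisis differences are given without a test.

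For the spleen set, Pearson correlation over the 63 libraries gave these neighbours. For Dapl1 they were the T cell receptor segment Trbv19, the receptor gene Gpr83 and the helper T cell ligand Cd40lg, each at r = 0.96. For Nrn1 they were Dapl1 (0.88), Gpr83 (0.86) and the T cell receptor constant gene Trac (0.85), and for Nipal1, at lower r, they were Trbc1, Tnfrsf9 (each 0.78) and Tcf7 (0.77). By Spearman correlation over the same libraries the 3 for Nipal1 were the same, but those for Dapl1 were Gbgt1 (0.88), Btnl4 (0.87) and Serpina1b (0.87), and those for Nrn1 were Adrb1 (0.75), a gene listed without a symbol (0.74) and Gbgt1 (0.74). In crisis Trac differed by −3.05 (SE 0.713) in spleen, and Tnfrsf9, a costimulatory receptor gene, by −2.62 in spleen and 2.32 in marrow. For Igf2 the next after H19 were Cfd (0.77) and Shox2 (0.75), and for Myo18b they were Lgmn (0.86), P2ry13 (0.86) and Slc37a2 (0.85). In crisis spleen, where Myo18b stood higher, P2ry13 (mean 439 against 858 in young wild type) and Slc37a2 (929 against 1872) had lower means. Lgmn had 6278 against 6096. In the 21 whole-tissue libraries alone, none of the first 3 was the same for any member except H19 for Igf2.

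Sorted progenitors give levels that the choice of genes did not use. Dapl1 lay between 0 and 5.98 in every sorted library, and Nrn1 at or below 9.21 except for 23.5 in 1 young wild-type spleen SMP library. Neither could be fitted there. Arpp21 was detected in all 4 sorted populations, and Rsph9, Ddc, Nipal1, Igf2 and Myo18b reached the fit in some.

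Arpp21 fell in spleen SMP in crisis, the opposite of whole spleen. Spleen SMP measured 469, 376 and 391 in young wild type and 264, 94.2 and 74.1 in crisis, with no overlap (24.7% of all genes lay wholly below), a log2 difference of −1.73 (SE 0.468, limma adjusted p = 0.0262). Rsph9 fell there too, from 60.6, 33.5 and 68.9 to 18.3, 11.3 and 22.1, a log2 difference of −1.59 (SE 0.493, limma adjusted p = 0.0364). These were 2 of the 5 members fitted, where 31% of all genes were called and 14.8% called lower, so the share is near the background. Both calls were lost when crisis mouse 2 or 3 or any young wild-type library was left out, with adjusted p of 0.0646 to 0.0799 for Arpp21 and 0.0520 to 0.107 for Rsph9. The Rsph9 call was also lost without rescaling (adjusted p = 0.0592), without the filter (0.0509) and with crisis and young wild type alone in the fit (0.0672).

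Of the other 3 members fitted in spleen SMP, Nipal1 and Ddc did not pass, and Igf2 is described without a test. Nipal1 measured 43.1, 29.4 and 28.9 in young wild type and 8.06, 5.67 and 17.5 in crisis, which do not overlap (−1.72, SE 0.655, limma adjusted p = 0.0657). It passed on the deposited regularised log2 table (adjusted p = 0.0424) and with all wild-type libraries as the control (0.0277). Igf2 measured 14.7, 25.9 and 19.8 against 0, 1.91 and 12.3, likewise without overlap (−2.61, SE 0.944). It reached the minimum mean of 10 only through young wild type (mean 20.1, against 4.74 in crisis), so its difference is a description. That difference ranged from −3.02 to −1.55 over the 9 settings where it could be fitted. Ddc overlapped between the groups (−0.87, limma adjusted p = 0.467).

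Other markers moved in the same spleen SMP libraries. The stem and early progenitor sum was 2906 to 3508 CPM in young wild type and 699 to 2045 CPM in crisis, while the erythroid sum was 2666 to 8189 against 8675 to 16905 CPM. The early B sum was 1426 to 1532 against 467 to 1203 CPM, with 5 of 17 genes lower beside 14.8% of all genes. Among them were the recombination gene Rag2 (−2.33), Dntt (−2.20), Il7r (−2.14) and Cd79b (−1.51). The T cell sum was 139 to 179 against 17.9 to 78.2 CPM. Their part in the Arpp21 and Rsph9 results was not tested.

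In marrow SMP none of the 4 members fitted was called by limma, beside 7.52% of all genes. Arpp21 measured 361, 665 and 474 in young wild type and 512, 183 and 116 in crisis, where mouse 1 lay inside the young wild-type range and the other two below it (−1.13, SE 0.464, unadjusted p = 0.0341, limma adjusted p = 0.153). Rsph9 showed the same mouse apart, at 58.6 against 16.3 and 19.1, with young wild type at 39.8, 36.1 and 51.1 (−0.64, limma adjusted p = 0.386). Without crisis mouse 1 both were called, Arpp21 at −1.73 (adjusted p = 0.00602) and Rsph9 at −1.20 (adjusted p = 0.0372). Ddc (−1.01) and Myo18b (−0.80) did not pass, and 1 of the 4, Arpp21, had an unadjusted p under 0.05.

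The same mouse stood apart in marrow MEP. Arpp21 measured 165, 108 and 564 in young wild type and 368, 49.8 and 27.7 in crisis, and Rsph9 measured 16.3, 19.2 and 117 against 88.3, 2.73 and 11.7. In crisis mouse 1 the 2 genes were thus above the other crisis mice in whole marrow, marrow SMP and marrow MEP alike. None of the 3 members fitted in marrow MEP was called by limma, and none had an unadjusted p under 0.05, where 0.00693% of all genes were called. In spleen MEP Arpp21 alone was fitted and measured 38.7, 62.3 and 211 against 21.0, 67.8 and 12.8 (−1.56, SE 0.724, unadjusted p = 0.0564, limma adjusted p = 0.265, with 0.0366% of all genes called). Early B markers in marrow MEP also ranged widely, from 775 to 2066 CPM in young wild type and from 272 to 1305 CPM in crisis.

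**Figure D5:**
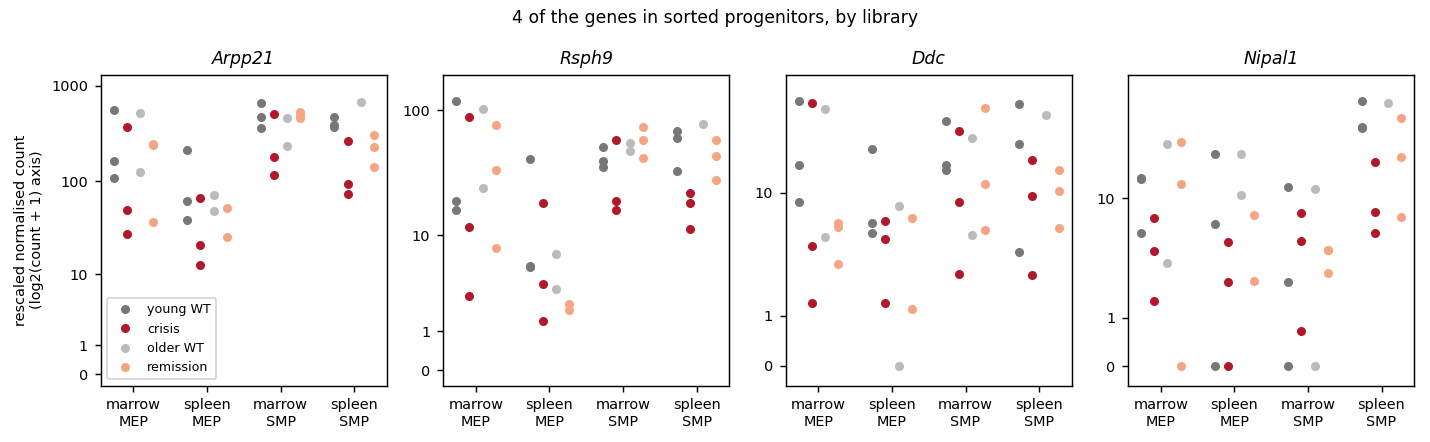
Level of Arpp21, Rsph9, Ddc and Nipal1 (normalised counts after rescaling, logarithmic axis) in each sorted MEP and SMP library of marrow and spleen, by group, with 1 point per library. In spleen SMP the crisis libraries of Arpp21 (74.1 to 264) and Rsph9 (11.3 to 22.1) lie below those of young wild type.

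Joint fits of sorted cells of both tissues held 5 members in SMP and 3 in MEP, and Nrn1, Dapl1 and Igf2 could be fitted in neither. In each tissue alone, Arpp21, Rsph9 and Ddc passed the filter in SMP, and only Arpp21 did in MEP. Nipal1 lay below it in marrow SMP, Myo18b in spleen SMP, and Rsph9 and Ddc in spleen MEP. Those members entered that joint fit only through the tissue in which they are higher, so their differences there are a description. The joint SMP fit took the mouse as a block (3 crisis mice but no young wild-type mouse gave both). There the crisis difference in spleen minus that in marrow was −0.61 for Arpp21, −0.94 for Rsph9 and 0.14 for Ddc. As a description it was 0.14 for Myo18b and −2.06 for Nipal1, the sign of its whole-tissue difference. The marrow SMP means of Nipal1 were only 4.79 in young wild type and 4.50 in crisis. Arpp21, Rsph9 and Ddc were not called by limma, with adjusted p of 0.498, 0.287 and 0.944, where 2.57% of all genes were called. In MEP the value was −0.14 for Arpp21, not called, where 0% of all genes were called. As a description it was 0.11 for Rsph9 and 0.16 for Ddc. The whole-tissue difference of Arpp21 was 3.64 and of the opposite sign to both, but these fits are separate and the difference between them was not tested.

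In remission the marrow levels of Arpp21, Rsph9 and Ddc stood between crisis and young wild type by their means. Arpp21 in remission marrow measured 169.6, 212 and 235, above all crisis marrows, and 73.7 and 192 in the 2 older wild-type marrows. Rsph9 measured 429, 350.0 and 816 against 168 and 389 in older wild type, and Ddc 205, 204 and 385 against 137 and 190.3. Remission lay above every crisis library for Arpp21 and Rsph9, and for Igf2 it lay below (3.91, 160.5 and 378), 3 of 8 beside 17.6% of all genes that did not overlap. In older wild type the lower of the 2 marrows, that of mouse 1, also had fewer early B markers, 908 against 2528 CPM.

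In remission spleen Arpp21 measured 16.4, 74.7 and 85.1, below all crisis spleens, and 23.1 in the single older wild-type spleen. Myo18b measured 84.0, 38.6 and 51.2, overlapping crisis by its first library. Dapl1 measured 515, 50.6 and 115, Nipal1 309, 70.2 and 36.0 and Nrn1 185, 15.5 and 61.8, in each case with mouse 1, the spleen rich in T cell markers, far above the other two. Nipal1 lay just above every crisis spleen and Arpp21 and Ddc lay below, 3 of 8 beside 26% of all genes.

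No member was called by limma between remission and older wild type in any population. The counts were 0 of 7 members in whole marrow and 0 of 7 in whole spleen, where 0% of all genes were called in each (1.15% and 0.801% at an unadjusted p under 0.05), and none of these had an unadjusted p under 0.05. In sorted cells 0 of 3 in marrow MEP, 0 of 1 in spleen MEP and 0 of 4 in marrow SMP were called, again with 0% of all genes. In spleen SMP 0 of 5 were called beside 0.0129% of all genes, and Arpp21, at 307, 141 and 229 in remission and 681 in the single older wild-type library, had an unadjusted p of 0.0302. Without remission mouse 1 and older wild-type mouse 1, 4678 genes were called in whole spleen, and Arpp21 was higher in remission (1.74, adjusted p = 0.0473) and Dapl1 lower (−2.09, adjusted p = 0.0389), both against 1 older wild-type library whose spread is taken from the other groups.

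Between remission and crisis in sorted cells no member was called either. In marrow SMP 0 of 4 were called by limma beside 1.25% of all genes, though Arpp21 (529.9, 463 and 487 in remission) had an unadjusted p of 0.0312 and Rsph9 (73.6, 58.4 and 42.5) one of 0.0341. In spleen SMP 0 of 5 were called beside 0% of all genes, with Rsph9 (28.4, 43.8 and 58.1) at an unadjusted p of 0.0263 and above every crisis library. In marrow MEP 0 of 3 were called beside 0.00693%, and in spleen MEP 0 of 1 beside 0%, with no unadjusted p under 0.05 among them.

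Spleen and marrow of the same remission mice differed in a comparison that the choice of genes did not use. Of the 6 members that passed the filter in each tissue alone, Arpp21, Rsph9, Ddc, Nrn1 and Nipal1 were called, beside 23.4% of all genes. Nrn1 and Nipal1 passed it in marrow only through the crisis libraries that the choice used. Their marrow means were 86.6 and 23.5 in crisis against 0.814 and 4.01 in young wild type, so their calls are no independent support. Dapl1 and Igf2 entered the joint fit only through the tissue in which they are high, so their differences are a description that supports nothing. The marrow genes were lower in spleen, with log2 differences of −2.08 for Arpp21 (SE 0.485, limma adjusted p = 0.00484), −2.97 for Rsph9 (SE 0.605, adjusted p = 0.00176) and −2.89 for Ddc (SE 0.542, adjusted p = 0.000924). Igf2 was lower there as well (−3.63, SE 1.26). The spleen genes were higher there, with 5.49 for Dapl1 (SE 0.778), 3.00 for Nipal1 (SE 0.939, adjusted p = 0.0287) and 2.54 for Nrn1 (SE 0.875, adjusted p = 0.045). Myo18b was not called (0.63, SE 0.519, adjusted p = 0.408). By range 5 of 8 did not overlap between the tissues, beside 23.6% of all genes: Arpp21, Rsph9, Ddc, Nipal1 and Dapl1. As Nipal1 and Dapl1 are among them, this count is a description and nothing is read from it.

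Those calls were unequal in stability. Rsph9 and Ddc passed in all 14 settings run, those that leave out 1 library included, and Arpp21 in all but the unrescaled values (limma adjusted p = 0.0559). As a description, the difference ranged from 4.37 to 6.18 for Dapl1 and from −5.95 to −2.21 for Igf2 over the 14 settings. Nrn1 (0.0958) and Nipal1 (0.0582) were also lost with unrescaled values. Nrn1 was lost with all 64 libraries scaled at once (0.0513), with a pseudocount of 0.5 (0.0657) and without the filter (0.0888). Without remission mouse 1 and older wild-type mouse 1, Nrn1 (0.177) and Nipal1 (0.205) were lost. Nrn1 was lost without marrow mouse 1 (adjusted p = 0.171), spleen mouse 1 (0.153), marrow mouse 2 (0.167) or spleen mouse 3 (0.0822). Nipal1 was lost without marrow mouse 1 (0.155), spleen mouse 1 (0.102) or marrow mouse 3 (0.0608). With the mouse ignored as a block, Nrn1 (adjusted p = 0.140) and Nipal1 (0.0656) were also lost.

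The same comparison was made for their marker groups, beside 23.4% of all genes called in either direction. In remission spleen 15 of 16 T cell genes were higher than in remission marrow, led by Bcl11b (4.87, SE 0.637, adjusted p = 3.3e-05), Trac (4.21), Cd3e (4.21) and Cd5 (4.14), and 10 of 18 early B genes were lower, led by Igll1 (−5.45), Rag2 (−5.28), Vpreb1 (−5.25) and Vpreb2 (−5.00). Of the insulin-like growth factor genes, Igfbp5 (−6.14), H19 (−5.23, SE 1.48), Irs1 (−4.14) and Plagl1 (−3.38) were among 7 of 15 lower in spleen, and 1 was higher. H19 measured at most 7.24 in any whole spleen and entered the joint fit only through marrow, so its difference is a description. Without remission mouse 1 and older wild-type mouse 1 these counts were 15 for T cell genes, 11 for early B genes and 8 for insulin-like growth factor genes. Rsph1 (−4.14) was lower in spleen with Rsph9, as was Maob (−3.82) with Ddc.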

How the data were processed

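RNA of 64 mouse libraries (PureLink RNA isolation, KAPA mRNA HyperPrep kit, per the labels' protocols) was sequenced, and the authors deposited a table of normalised counts (a signal that need not be whole; 26286 genes) and a table of log2 values (25287 genes) that the authors regularised before deposit, per its file name. The submitters' processing notes name Bowtie2 2.2.0, RSEM, DESeq2 and GRCm38, with no order or roles. Symbols were found for 25607 identifiers. Here each library was divided by its median ratio to its population's geometric mean, and log2(value + 1) was fitted in limma 3.58.1 (R 4.3.3, trend, robust) with 1 mean per group for each population, for genes with a mean of at least 10. All groups share the spread, so a group with 1 library has none of its own. Tests were two-sided, with Benjamini-Hochberg adjustment over all genes at 0.05. Fits of spleen and marrow together took the mouse as a random block, because the labels give both tissues from some of the same mice (young wild type, crisis and remission: 2, 3 and 3 mice for whole tissue, 3, 3 and 2 for MEP, 0, 3 and 1 for SMP; within-mouse correlation 0.315, 0.543 and 0.287). Members, lists and tests were chosen with earlier results of these data known. The text names the members, for each the 3 genes with the highest correlation, and from each list at most 4 genes called with the largest change or else the 2 best expressed, except genes not reported here. Scaling, pseudocount, filter, table, control group, block and left-out libraries were varied, and list counts without single crisis libraries or without mice 2726 and 27265 (remission mouse 1 and older wild-type mouse 1) were added after seeing the data. The scripts were tested on simulated data. Highest Spearman correlation between 2 libraries was 0.975, so none was a duplicate.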

Additional observations from a re-analysis of the deposited data

Results flagged for a closer look

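Arpp21 measured 90.7 (rescaled normalised count) in the whole-spleen library whose labels say scat/scat in partial remission while the other libraries of the same mouse say wild type. It belongs to no group here and was looked at because its value lies outside the main comparison and above all 4 wild-type whole spleens, which ran from 23.1 to 56.4. The remission spleens ran from 16.4 to 85.1. No explanation was tested.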

How the results depend on the processing

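Directions of the whole-tissue crisis differences of the members held in every setting except Rsph9 and Ddc in spleen, as given above. Counts of genes past the threshold depended on the libraries and the scaling, and the cause was not tested. In whole marrow in crisis 1386 genes were called (244 without rescaling, 592 with all wild-type libraries as control, 0 to 2188 with 1 library left out). In whole spleen in crisis 2445 were called (7765 without mice 2726 and 27265, 7526 with crisis and young wild type alone, 5043 with all wild type, 0 to 236 with 1 left out). In spleen SMP in crisis 4795 were called (2304 without rescaling, 0 to 6389 with 1 left out), and in marrow SMP 1148 (281 without rescaling, 340 with crisis and young wild type alone, 0 to 3173). In marrow MEP 1 was called (2 without rescaling, 5 without the mice, 29 with crisis and young wild type alone, 3 with all wild type, 0 to 428), and in spleen MEP 5 (304, 183, 164 and 193 in that order, 1 with a pseudocount of 0.5, 0 to 190). Remission against older wild type gave 0 in whole marrow (1 without the mice, 0 to 0), whole spleen (4678 without the mice, 0 to 4678), marrow MEP (0 to 0), spleen MEP (1 without rescaling, 1 without the mice, 0 to 1) and marrow SMP (3 without rescaling, 0 to 2), and 2 in spleen SMP (4 without rescaling, 4 with a pseudocount of 5, 5 without filter, 4 on the regularised table, 1 to 2). Remission against crisis gave 1 in marrow MEP (2 without rescaling, 2 without filter, 0 without the mice, 0 to 147), 0 in spleen MEP (23 without rescaling, 3 without the mice, 0 to 17), 190 in marrow SMP (0 without the mice, 0 to 2734) and 0 in spleen SMP (0 to 1941).

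Labels tie spleen and marrow to the same mice for most whole-tissue and MEP libraries but for only 3 crisis mice and 1 remission mouse in SMP, and the replicate block is part of these fits. The whole-tissue difference had 1748 calls (530 with no replicate block, 50 without rescaling, 1074 without filter, 4957 without the mice, 900 to 1750 with 1 left out). Remission spleen against marrow had 3815 (2380 with no replicate block, 1455 without rescaling, 6895 without the mice, 2654 to 7643). The SMP difference had 396 (0 with no replicate block, without rescaling, without filter or without the mice, 2 with all libraries scaled at once, 8 on the regularised table, 0 to 4102), and the MEP difference 0 (0 to 0).

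Members whose sign turned were all short of the threshold. In the MEP difference these were Arpp21 (−0.14, 0.11 without rescaling, −0.99 to 1.03 with 1 library left out), Rsph9 (0.11, −0.85 to 1.70) and Ddc (0.16, −0.87 to 1.27). In the SMP difference they were Ddc (0.14, −0.41 without rescaling, −0.71 to 0.77) and Myo18b (0.14, −0.16 without rescaling, −0.063 with a pseudocount of 5, −0.13 on the regularised table, −1.17 to 0.86). Myo18b in marrow SMP in crisis (−0.80) was 0.014 without crisis mouse 3 and −1.42 without crisis mouse 1, Nipal1 in remission marrow against older wild type (−0.19) was 0.31 without the mice and −0.59 to 0.21 with 1 library left out, Rsph9 in remission spleen (0.47) was −0.12 without mouse 2 and 1.43 without mouse 1, and Ddc there (−0.17) was 0.31 without rescaling. Depth as such is not stated in the normalised table, so no counting error is given, and 2 to 3 libraries per group, or 1 for older wild-type spleen, limit the precision.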

Other observations

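The other members in that unassigned whole-spleen library measured 47.0 for Rsph9, 28.4 for Ddc, 20.8 for Myo18b, 66.1 for Nrn1, 142 for Dapl1, 43.4 for Nipal1 and 3.78 for Igf2. Its T cell markers summed to 351 CPM, its early B markers to 555 CPM and its mature B cell markers to 1815 CPM, each below all 4 wild-type whole spleens and above all 3 crisis spleens.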
